A study of Salmo salar with 72 samples.

Results

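The nuclear genes of the mitochondrial respiratory chain were followed in cultured Atlantic salmon hepatocytes exposed to arsenic compounds. A gene belonged to this set if it was not on the mitochondrial genome and its name in the deposited table held the words NADH dehydrogenase [ubiquinone], succinate dehydrogenase, cytochrome b-c1 complex, cytochrome c oxidase or ATP synthase. Of 25830 genes in the table, 0.674% met the rule. They comprised 144 subunit genes (49 of complex I, 11 of complex II, 18 of complex III, 38 of complex IV and 28 of complex V) and 25 assembly factor genes. The other 5 were ATP synthase subunit s and an s-like gene, and 3 vacuolar ATP synthase subunits, which matched the words but belong to a proton pump of other membranes. Counts, percentages and medians given below for the respiratory chain genes as a whole include these 5. A further 5 genes that matched the words lie on the mitochondrial genome and were left out.

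The respiratory chain carries electrons from NADH (complex I) and succinate (complex II) through ubiquinone, complex III and cytochrome c to oxygen at complex IV. Complexes I, III and IV pump protons across the inner mitochondrial membrane, and complex V, the ATP synthase, uses the gradient to make ATP. Most subunits are encoded in the nucleus and imported, a core set is encoded on mitochondrial DNA, and assembly factors build the complexes without being part of them. Complex II is the exception, with all subunits encoded in the nucleus, and it is also an enzyme of the citric acid cycle. Salmonids carry many genes in duplicate from an ancestral genome doubling, and here 54 of 91 subunit and assembly factor names were shared by 2 or more genes (132 genes).

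RNA sequencing covered 72 libraries in 14 groups, all of primary hepatocytes isolated from the livers of male fish and kept 48 h with or without compound on laminin-coated polystyrene scaffolds. Arsenite (AsIII) was given at 3, 10, 30 and 100 µM and arsenobetaine (AsB) at 10, 50, 100 and 500 µM, each to cells of the same 6 fish. Arsenate (AsV) was given at 10, 50 and 100 µM to cells of fish 1 to 3. Each compound had its own unexposed control group on its own plates, from the same fish, and all doses of a compound are set against that control, so that its comparisons are not independent of each other. Doses are those of the sample titles; other label text names an arsenosugar and other doses, and this disagreement could not be resolved from the labels.

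Libraries held 30.9 M to 86.4 M counted reads (median 38.6 M). Among the arsenite libraries, AsIII 100 µM of fish 1, with 1694 genes at 0, and AsIII 30 µM of fish 5, with 1396, stood apart from a median of 208.5; calls below that were lost without either library are named. Among the arsenate libraries the median was 249.5, but fish 3 had 1729, 1505 and 1069 genes at 0 at 10, 50 and 100 µM AsV. AsV 100 µM of fish 2 had 676. With 3 fish a group, the arsenate results thus rest in part on such libraries. Genes at 0 were more frequent in the arsenobetaine libraries (median 1608). Hepatocyte markers (21 genes) took 10.2% to 14.6% of reads in every library, while erythroid, leukocyte, endothelial, biliary and muscle markers each stayed at or below 0.00191%. The hepatocyte share had a median of 11.1% at 3 µM AsIII, against 13.5% in its control; its part in the results was not tested. In such cultures, fewer cells of a type and less RNA per cell cannot be told apart.

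All of these genes passed the filter on low values. Values are normalized counts, that is reads divided by the size factor of the library; without gene lengths they compare libraries, not genes. Fold changes are on the log2(value + 1) scale with their standard error (SE), and a gene is said to have risen or fallen where the Benjamini-Hochberg adjusted p of limma, over all genes tested, was under 0.05. Reads of near-identical gene copies may have been assigned to the wrong copy, so that values of single copies are uncertain.

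Many respiratory chain genes were lower with arsenite, most widely at the lowest dose. At 3 µM, 75 genes fell (43.1%) and 10 rose (5.75%), where over all genes 25.0% fell and 29.5% rose. Of the 10 that rose, 2 were the vacuolar genes vato and vatb2, which are not part of the chain. Both are also among the falls at 30 and 100 µM. At 10 µM, 35 fell (20.1%) and 21 rose (12.1%), against 20.5% and 26.8% of all genes. Falls numbered 41 at 30 µM (23.6%, against 17.7% of all genes) and 47 at 100 µM (27.0%, against 17.3%). Rises numbered 14 at either dose (8.05%), where 23.9% of all genes rose at 30 µM and 22.6% at 100 µM. The median log2 fold change of the respiratory chain genes was -0.25, -0.05, -0.14 and -0.18 from 3 to 100 µM, and that of all genes lay between 0.04 and 0.06. The share of falls was thus above the background at 3, 30 and 100 µM and close to it at 10 µM. The share of rises was below it at every arsenite dose. These calls come from a fit that does not pair samples by fish. With fish as a block, 89 fell and 15 rose at 3 µM, 42 and 28 at 10 µM, 53 and 19 at 30 µM, and 64 and 16 at 100 µM. That fit called 24.2% of all genes lower and 31.8% higher at 10 µM, and 50.9% in either direction at 30 µM. Its share of all genes at 3 and 100 µM is not given.

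Scaling each library to its total reads, in place of the size factors, shifted the median of all genes to -0.21, -0.24, -0.09 and -0.05 from 3 to 100 µM, and that of the respiratory chain genes to -0.52, -0.36, -0.27 and -0.26. They thus lay below all genes on either scale. On that scale 6 genes rose and 127 fell at 3 µM (all genes 21.9% and 36.1%), 1 rose and 106 fell at 10 µM (16.9% and 35.2%), 6 rose and 74 fell at 30 µM (all genes 42.8% in either direction), and 10 rose and 73 fell at 100 µM (19.5% and 21.2%). Rises thus made up 37.5% of calls at 10 µM with size factors and 0.935% with total reads, 25.5% and 7.50% at 30 µM, and 23.0% and 12.05% at 100 µM. The small rises described below depend on that choice, and their values on the total-read scale are given.

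Across the 4 arsenite doses, 17 of these genes fell at every dose, 1 rose at every dose and 46 were called at none. The 17 were 8 subunits of complex I, 1 of complex II, 3 of complex III, 3 of complex V and 2 assembly factors of complex IV. A further 34 fell at 3 µM only. The share of all genes with such repeated calls was not computed, and the 4 doses share 1 control. These counts over doses thus have no background to be set against. With any 1 fish left out, 63 of the 85 calls at 3 µM were still made, 30 of 56 at 10 µM, 26 of 55 at 30 µM and 33 of 61 at 100 µM.

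**Figure D1:**
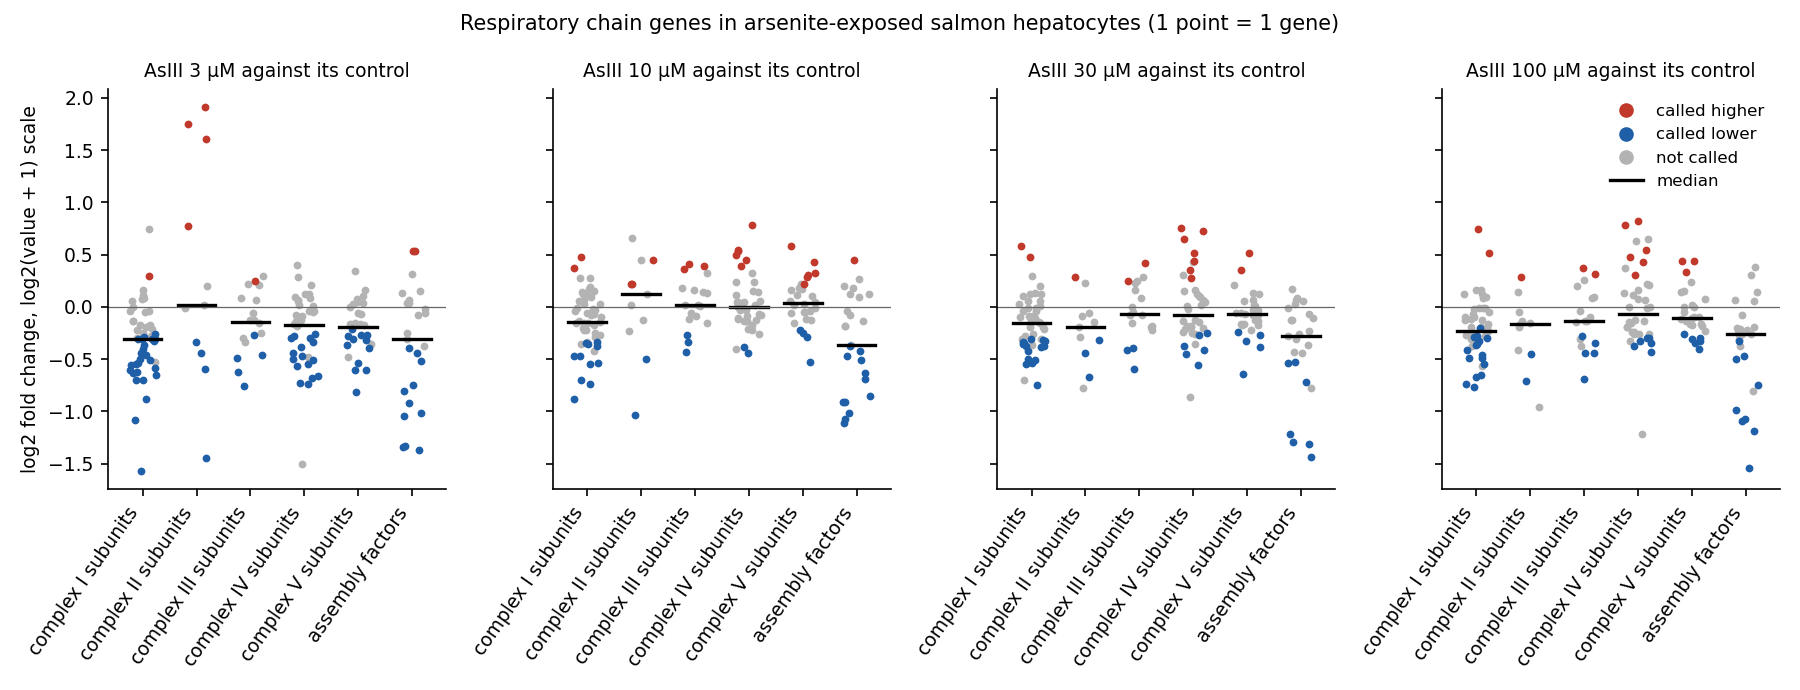
Log2 fold change of each respiratory chain gene at 4 arsenite doses against the arsenite control (y axis, log2(value + 1) scale), by complex and for assembly factors (x axis). Each point is 1 gene, coloured by its limma call, and bars are medians. At 3 µM most complexes lie below 0 with a median of -0.30 in complex I, while 4 complex II genes stand above the rest; at 10 µM the subunit medians lie near 0 and that of the assembly factors at -0.36.

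Complex I, which oxidises NADH, had the most subunit genes that fell. At 3 µM 26 of its 49 subunit genes fell and 1 rose, with a median log2 fold change of -0.30. It was 11 lower and 2 higher at 10 µM, 15 and 2 at 30 µM, and 16 and 2 at 100 µM. Over all genes, 25.0%, 20.5%, 17.7% and 17.3% fell from 3 to 100 µM and 29.5%, 26.8%, 23.9% and 22.6% rose. The decrease that was greatest in size at 3 µM was in LOC106573873, an NDUFA7-like accessory subunit. It had 27.2, 46.6 and 56.2 normalized counts at 3 µM (lowest, median and highest of 6 fish), against 98.9, 128 and 178.9 in the control. The ranges did not overlap, and the log2 fold change was -1.57 ± 0.21 (limma adjusted p 1.57e-07, lower in 6 of 6 fish). It was -0.88 at 10 µM (adjusted p 0.000925), -0.55 at 30 µM (0.038) and -0.74 at 100 µM (0.00583); the call at 30 µM was lost without fish 1, 2, 3, 5 or 6, with adjusted p up to 0.116.

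NDUFA9, an accessory subunit near the ubiquinone site, fell in both of its copies at every dose. LOC106561367 had 161.9, 184 and 210.2 normalized counts at 3 µM, against 334, 389 and 421 in the control, with no overlap (log2 fold change -1.08 ± 0.14, adjusted p 1.05e-07). It fell by 0.70, 0.50 and 0.76 on the log2 scale at 10, 30 and 100 µM. The other copy, LOC106573192, chosen after its values were seen, had log2 fold changes of -0.70, -0.37, -0.50 and -0.33 from 3 to 100 µM, the last not called without fish 3 (-0.28, adjusted p 0.0617). In ndufs3, a core subunit of the arm that binds ubiquinone, the counts were 314, 395 and 489.7 at 30 µM, against 525, 691 and 823 in the control, without overlap. Its log2 fold changes were -0.46, -0.47, -0.75 and -0.67 from 3 to 100 µM, with SE 0.12 at each dose (adjusted p 1.16e-05 at 30 µM).

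Chosen after their values were seen because they fell at every dose, LOC106588156, a copy of NDUFV1 that holds the flavin to which NADH gives its electrons, changed by -0.33, -0.34, -0.42 and -0.49, and ndufc1, an accessory subunit, by -0.88, -0.74, -0.35 and -0.29. LOC106588156 lost its call at 3 µM without fish 2 (-0.28, adjusted p 0.06) and at 10 µM without fish 1 (-0.30, 0.0545). The gene ndufc1 lost its call at 30 µM without fish 3 (-0.27, 0.0802) and at 100 µM without fish 1, 2, 3, 4 or 6 or without the AsIII 100 µM library of fish 1 (-0.21, 0.136). LOC106600555 (NDUFA13-like) and LOC106609195 (NDUFA5-like), chosen for the same reason, had log2 fold changes at 100 µM of -0.65 and -0.36. LOC106600555 lost its calls at 3 and 10 µM without fish 2 or 3 and at 30 µM without fish 3 (adjusted p up to 0.0854), and LOC106609195 its calls at 10, 30 and 100 µM without 1 of several fish (adjusted p up to 0.131).

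Few complex I subunits went the other way. LOC106581904, an NDUFV3-like gene for a small accessory subunit of the flavoprotein arm, had 690.5, 782 and 859 normalized counts at 100 µM, against 409.6, 457 and 548 in the control. The ranges did not overlap, and its log2 fold changes were 0.08 ± 0.12 at 3 µM (adjusted p 0.601), 0.48 at 10 µM, 0.58 at 30 µM and 0.75 ± 0.12 at 100 µM (adjusted p 6.01e-06, higher in 6 of 6 fish). On the total-read scale the change was 0.18 at 10 µM (adjusted p 0.258) and 0.66 at 100 µM (1e-04). The rise at 3 µM was in LOC106602580 (NDUFS8, an iron-sulfur core subunit), by 0.30 ± 0.09 (adjusted p 0.00748); it was 0.04 on the total-read scale and lost its call without fish 2 (0.25, adjusted p 0.0562).

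In its summed counts, given below, complex II moved apart from the others at the lowest dose. Of its 11 subunit genes, 4 rose and 4 fell at 3 µM, where over all genes 29.5% rose and 25.0% fell. The number of calls alone thus does not set it apart from all genes. The 4 that rose were 3 copies of SDHA, the flavoprotein that oxidises succinate, and 1 copy of SDHB, the iron-sulfur subunit. LOC106573122 (SDHA) had 1756, 2257 and 3156 normalized counts at 3 µM, against 536, 607 and 705 in the control. LOC106598858 (SDHA) had 1419, 1918 and 2407, against 485, 569 and 683. Neither pair of ranges overlapped, and the log2 fold changes were 1.91 ± 0.35 (limma adjusted p 3.91e-05) and 1.75 ± 0.36 (0.000183), higher in 6 of 6 fish for either gene. The copy sdha had 3764, 4619 and 5003 at 3 µM, against 1724, 2852 and 3141, again without overlap (0.78 ± 0.12, adjusted p 2.02e-06).

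SDHB followed in 1 of 3 copies. LOC106566856 had 3939, 5744 and 11806 normalized counts at 3 µM, against 1392, 1849.5 and 3209 in the control, and fish 3 was the highest at either (1.61 ± 0.43, adjusted p 0.00227). The ranges did not overlap. In LOC106583101, an SDHB-like copy at low counts, the values were 7.77, 24.6 and 32.8, against 39.01, 56.2 and 82.7, also without overlap, and the gene fell by 1.45 on the log2 scale (SE 0.38, adjusted p 0.00178). The remaining copy, sdhb, stood at -0.01 at 3 µM without a call, and at -0.27 on the total-read scale (adjusted p 0.0229).

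At 10 µM sdha was higher by 0.45 ± 0.12 (adjusted p 0.00275; 0.15 and adjusted p 0.387 on the total-read scale), while LOC106573122 stood at 0.66 ± 0.35 (adjusted p 0.125; 0.0163 with fish as a block) and LOC106598858 at 0.45 ± 0.36 (0.322). LOC106566856 had 560.5, 942 and 2687 normalized counts at 100 µM, below its control in 6 of 6 fish although the ranges overlapped. Its log2 fold change was -0.78 at 30 µM (adjusted p 0.149) and -0.95 at 100 µM (0.0762); with fish as a block the adjusted p was 0.000163 and 1.4e-05. Without fish 3 the changes were -0.92 (adjusted p 0.0216) and -1.09 (0.00777). The remaining copy of SDHA, LOC106570380, stood at 0.02 at 3 µM (-0.24 on the total-read scale, adjusted p 0.0442) and rose by 0.29 at 30 µM and 0.28 at 100 µM, by 0.16 and 0.20 on the total-read scale. Those calls were lost without fish 1 at 30 µM (0.24, adjusted p 0.0611) and without fish 5 at 100 µM (0.25, 0.0579); its rise of 0.22 at 10 µM was lost without fish 1, 3, 4, 5 or 6 and was -0.09 on the total-read scale. The gene sdhb fell at 30 µM by 0.31 (SE 0.10), a call lost without fish 3 (-0.27, adjusted p 0.0669) or fish 5 (-0.26, 0.0828).

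The membrane anchors, SDHC and SDHD, hold the heme and the ubiquinone site, and 3 of their 4 genes fell at 3 µM. LOC106580927 (SDHD) had 2613, 2783 and 3064 normalized counts in the control. Its values were 1749.6, 1854 and 2037 at 3 µM, 1879.6, 1984 and 2148 at 10 µM, 1644, 1779 and 1928 at 30 µM, and 1499.9, 1746 and 1959.5 at 100 µM. No exposed range reached the control range. The log2 fold changes were -0.60, -0.50, -0.67 and -0.71 (SE 0.08 each, adjusted p 5.85e-08, 2.56e-06, 1.62e-08 and 7.31e-09), lower in 6 of 6 fish at every dose. LOC106612556 (SDHD) fell at 3 µM, by 0.45 (SE 0.10). LOC106600492 (SDHC) fell by 0.33 at 3 µM, lost without fish 6 (-0.25, adjusted p 0.0637), by 0.44 at 30 µM and by 0.45 at 100 µM. Its value at 10 µM was -0.23, called with fish as a block (adjusted p 0.0406). LOC106569582, the other SDHC copy, stood at 0.20 at 3 µM (adjusted p 0.0512), and at -0.06 on the total-read scale; it was called higher there with fish as a block (adjusted p 0.0245) and without fish 2 (0.24, adjusted p 0.0455), fish 6 (0.23, 0.0438) or the AsIII 100 µM library of fish 1 (0.20, 0.0452). It rose at 10 µM by 0.22 but was at -0.08 on the total-read scale, and its call was lost without fish 1, 2, 3, 4 or 6.

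Summed over the 11 genes, complex II counts were 1.30, 1.46 and 1.78 times those of the same fish's control at 3 µM (lowest, median and highest), higher in 6 of 6 fish. The ratio was 0.949, 1.09 and 1.21 at 10 µM, where the share of all reads was lower than in the control (0.0355%, against 0.0404%). It was 0.752, 0.916 and 0.941 at 30 µM and 0.791, 0.842 and 0.954 at 100 µM, lower in 6 of 6 fish at either dose. The complex II sum was thus above the control at 3 µM and below it at 30 and 100 µM. A sum gives most weight to genes with high counts, and at 3 µM single genes went both ways, as described above. The SDHA and SDHB copies that rose at 3 µM are part of the sum, so it is not separate support for their rise. With fish as a block, 2 of its genes rose and 5 fell at 30 µM, against 1 and 3 without it; over all genes that fit called 50.9%.

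**Figure D2:**
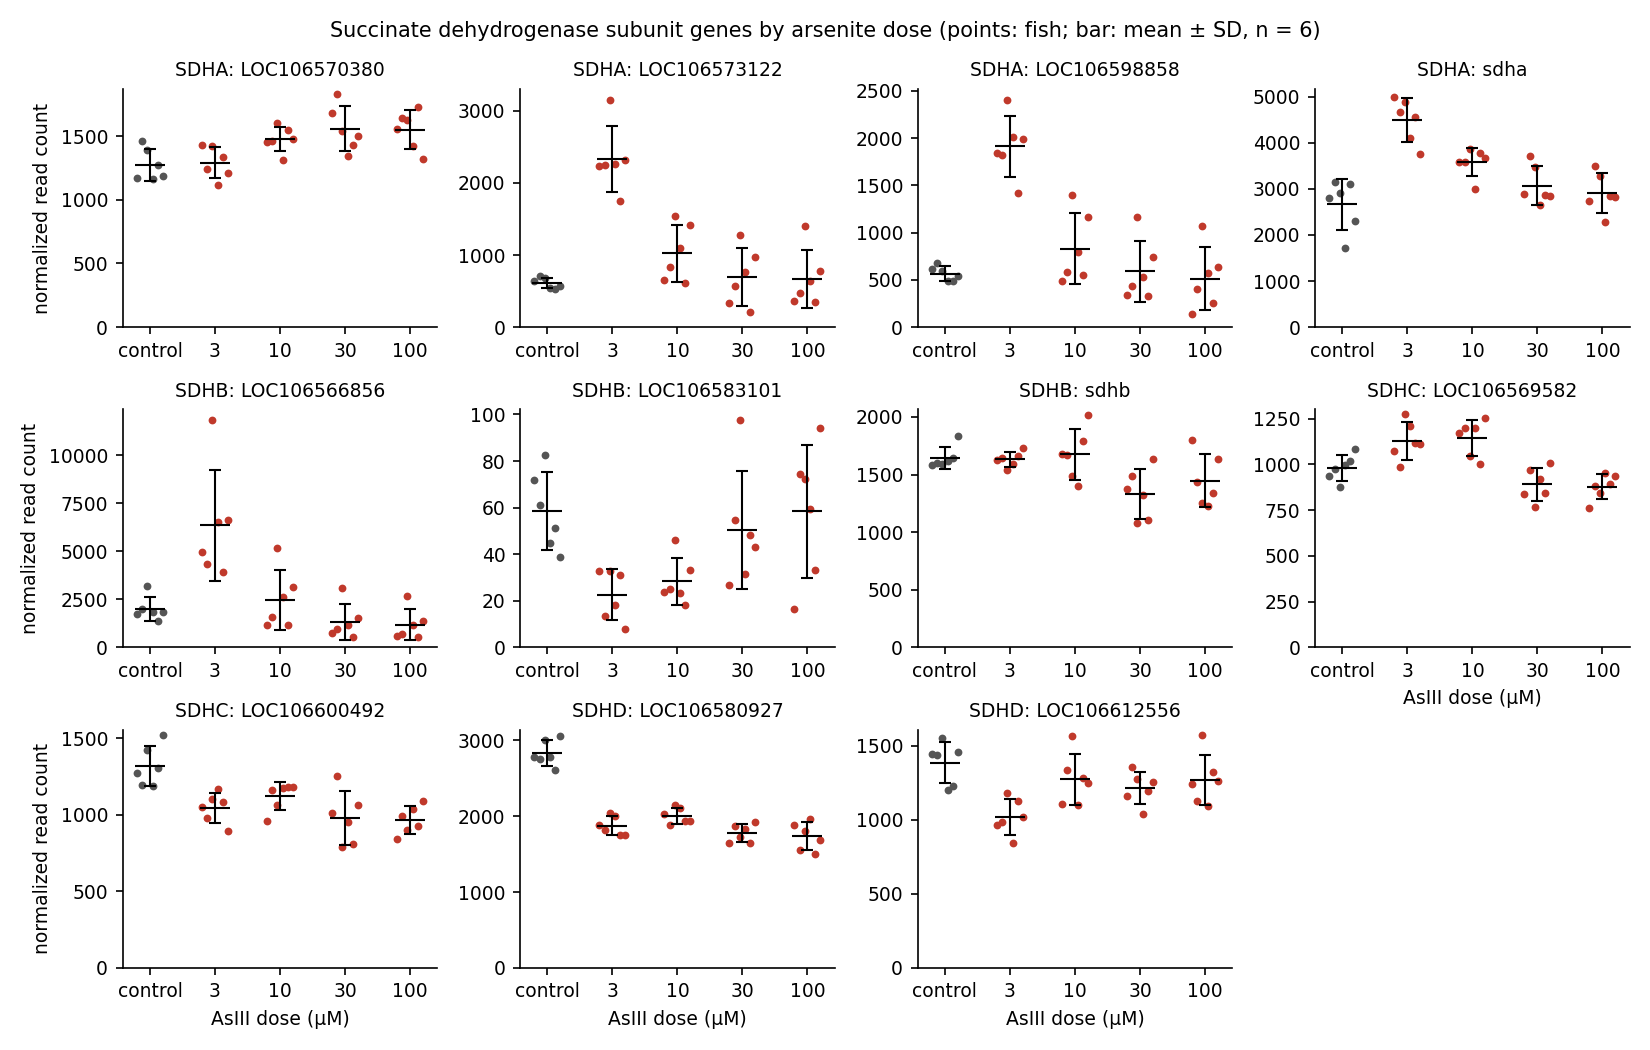
Normalized read counts (y axis) of the 11 succinate dehydrogenase subunit genes in the arsenite control and at 4 arsenite doses (x axis, µM). Points are the 6 fish, bars the mean ± SD. The SDHA copies LOC106573122, LOC106598858 and sdha and the SDHB copy LOC106566856 peak at 3 µM, whereas the SDHD copy LOC106580927 lies below its control at every dose.

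Complex III, which passes electrons from ubiquinol to cytochrome c, had 5 of 18 subunit genes lower and 1 higher at 3 µM (median -0.14). At 10 µM 3 fell and 3 rose, at 30 µM 3 fell and 2 rose, and at 100 µM 5 fell and 2 rose. Over all genes 25.0%, 20.5%, 17.7% and 17.3% fell from 3 to 100 µM, and 29.5%, 26.8%, 23.9% and 22.6% rose. The falls of complex III were thus near the share of all genes at 3, 10 and 30 µM. Both copies of core protein 1 (UQCRC1), which has a structural role, fell at every dose. LOC106565806 had 2844, 3219 and 3624 normalized counts at 3 µM, against 5058, 5314 and 6622 in the control, without overlap there or at any higher dose. Its log2 fold changes from 3 to 100 µM were -0.76, -0.43, -0.40 and -0.44 (SE 0.08, adjusted p 2.35e-09 at 3 µM, lower in 6 of 6 fish at each dose). LOC106582918 changed by -0.49, -0.27, -0.60 and -0.69, and its call at 10 µM was lost without fish 2, 3, 4 or 6 (adjusted p up to 0.149).

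The Rieske iron-sulfur protein, which takes the first electron from ubiquinol, had copies that moved in opposite directions. LOC106587304 had 1813, 2162 and 2489 normalized counts at 3 µM, against 2904, 3228 and 3777 in the control, without overlap, and fell by 0.62, 0.34, 0.41 and 0.44 on the log2 scale from 3 to 100 µM (SE 0.10). LOC106561396 had 1778, 2030.4 and 2533 at 10 µM, against 1389.5, 1564 and 1736 in the control, also without overlap. Its log2 fold changes were 0.25, 0.41, 0.25 and 0.32 (SE 0.09), higher in 6 of 6 fish at each dose, which makes it the 1 respiratory chain gene that rose at all 4. On the total-read scale those were -0.02, 0.10, 0.13 and 0.23, and at 100 µM the call remained (adjusted p 0.0301). With size factors the call at 3 µM was lost without fish 3 (0.23, adjusted p 0.0541) or fish 5 (0.21, 0.0857), and that at 30 µM without fish 1, 2 or 5 (adjusted p up to 0.067). Another copy, LOC106562006, fell at 3 µM by 0.46, a call lost without fish 2 (-0.44, adjusted p 0.0594).

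Complex IV, cytochrome c oxidase, was lower at 3 µM and mixed above it. At 3 µM 16 of its 38 subunit genes fell and 0 rose. At 10 µM 2 fell and 6 rose (5 and 8 with fish as a block, a fit in which 24.2% of all genes fell and 31.8% rose). At 30 µM 6 fell and 7 rose, and at 100 µM 6 fell and 6 rose. Over all genes 25.0%, 20.5%, 17.7% and 17.3% fell from 3 to 100 µM, and 29.5%, 26.8%, 23.9% and 22.6% rose. Among the falls at 3 µM were 4 of the 6 genes named COX7A2, a small subunit: LOC106607688 had 77.6, 91.3 and 135 normalized counts, against 142, 166.8 and 201 in the control, without overlap, and LOC106612682 had 150.3, 196 and 356, against 232, 362 and 444, with overlap. Each fell by 0.73 (SE 0.19 and 0.18), LOC106580767 by 0.55 and LOC106610772 by 0.51.

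COX8B, a small subunit with 4 copies here, split into pairs. LOC106573095 had 996, 1202 and 1507 normalized counts in the control, 1139, 1182 and 1675 at 3 µM, 1600.5, 1752 and 1832 at 10 µM, 1428, 1963 and 2208 at 30 µM, and 1809, 2121 and 2403 at 100 µM. The ranges at 10 and 100 µM lay wholly above that of the control. Its log2 fold change was 0.06 at 3 µM, then 0.54, 0.65 and 0.82 ± 0.11 (adjusted p 4.28e-07 at 100 µM), and 0.24, 0.52 and 0.74 at those 3 doses on the total-read scale. LOC106561622 had 593, 866 and 936 at 100 µM, against 288, 478 and 572 in the control, without overlap (0.79 ± 0.16, adjusted p 0.000253; 0.70 on the total-read scale). By contrast LOC106602990 had 1255, 1384 and 1556 at 30 µM, against 1702, 1843 and 2186, without overlap, and fell by 0.41 (SE 0.11, adjusted p 0.00381). Its fall of 0.29 at 100 µM was lost without fish 1, 2, 3, 5 or 6 or without the AsIII 100 µM library of fish 1 (adjusted p 0.0526). LOC106563661 fell by 0.50, 0.44 and 0.45 at 3, 10 and 30 µM, calls that were each lost when 1 of several fish was left out, with adjusted p up to 0.149 at 10 µM.

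Isoforms of COX4 and COX6A also differed in direction, though several of these calls depended on the scale or on single fish. Not all isoform copies of these and other subunits are described. COX4 isoform 2, which in mammals is the isoform of low oxygen, was higher in 6 of 6 fish at every dose: LOC106572113 had 2444, 4862 and 6802 normalized counts at 10 µM, against 1209, 3064 and 3877 in the control, ranges that overlapped because the fish differed widely. The other copy, LOC106566437, stood between -0.04 and 0.15 at the 4 doses without a call. LOC106572113 rose by 0.78 ± 0.28 at 10 µM (adjusted p 0.0223) and 0.75 at 30 µM (0.0321), by 0.48 and 0.62 on the total-read scale without a call. Those calls were lost without fish 2, 4 or 5 at 10 µM (adjusted p up to 0.0639), and without fish 2, 3, 4 or 5 (up to 0.112) or the AsIII 30 µM library of fish 5 (0.70, 0.0634) at 30 µM. With fish as a block, its 0.40 at 3 µM (adjusted p 0.237) and 0.65 at 100 µM (0.0651) were called too (1.02e-05 and 2.52e-09). COX4 isoform 1, LOC106562286, had 1233, 1259 and 1378 at 100 µM, against 1548, 1739 and 1907, without overlap, and fell by 0.43 (SE 0.09, adjusted p 0.000141). Its other copy, LOC106587370, fell at 3 µM, by 0.26 (SE 0.07). The fall of LOC106562286 by 0.24 at 30 µM was lost without fish 3 (-0.20, adjusted p 0.121) or fish 6 (-0.23, 0.0718).

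In COX6A, a regulatory subunit, LOC106606878 had 1377, 1552 and 1854 normalized counts at 100 µM, against 855, 1146 and 1494 in the control, with overlap, and rose by 0.45, 0.44 and 0.48 (SE 0.13) at 10, 30 and 100 µM, by 0.14, 0.31 and 0.40 on the total-read scale. The copy named subunit 6A1, LOC106585487, was lower by 0.38 at 30 and 100 µM, calls lost without fish 3 or 6 at 30 µM and without fish 2 or 3 at 100 µM (adjusted p up to 0.117). COX5B, which binds zinc and was chosen after its values were seen, rose in LOC106576835 by 0.50, 0.51 and 0.55 (SE 0.16) at 10, 30 and 100 µM, by 0.19, 0.39 and 0.46 on the total-read scale. Its call was lost without fish 5 at 10 µM (0.46, adjusted p 0.0539) and without fish 2 at 30 µM (0.48, 0.0517).

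Complex V, the ATP synthase, had 12 of 28 subunit genes lower and 0 higher at 3 µM (median -0.19). At 10 µM 4 fell and 6 rose, at 30 µM 5 fell and 2 rose, and at 100 µM 6 fell and 3 rose. Over all genes 25.0%, 20.5%, 17.7% and 17.3% fell from 3 to 100 µM, and 29.5%, 26.8%, 23.9% and 22.6% rose. The alpha subunit, which forms the catalytic head with beta, was lower in atp5a1, with 6267, 6721 and 7496 normalized counts at 3 µM against 9281, 10115 and 12025 in the control. The exposed ranges lay wholly below the control at every dose, and the log2 fold changes were -0.60, -0.29, -0.38 and -0.31 (SE 0.08, adjusted p 5.07e-08 at 3 µM, lower in 6 of 6 fish at each dose). Another alpha copy, LOC106569424, had 1848, 1998 and 2647 at 100 µM, against 1212, 1569.6 and 2127, with overlap, and rose by 0.44 ± 0.13 (adjusted p 0.00751; 0.35 on the total-read scale). Its rises of 0.32 and 0.35 at 10 and 30 µM were 0.02 and 0.23 on the total-read scale, and were lost without fish 2, 3, 4, 5 or 6 and without fish 2, 4 or 6.

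The c subunits form the ring that turns as protons pass. Of 4 genes named as C3, atp5g3_100196670 (symbol and gene ID, as the symbol is used for 2 genes) had 265, 329 and 422 normalized counts at 3 µM, against 406, 597 and 719 in the control, lower in 6 of 6 fish though the ranges overlapped. Its log2 fold changes were -0.81, -0.53, -0.65 and -0.40 from 3 to 100 µM (SE 0.13, adjusted p 5.09e-06 at 3 µM), and the call at 100 µM was lost without fish 2 (-0.39, adjusted p 0.056) or fish 3 (-0.30, 0.112). LOC106590033, also named C3, had 1541, 2001 and 2276 at 30 µM, against 1182, 1297 and 1575, with overlap. It changed by 0.11, 0.43, 0.52 and 0.44 (SE 0.10, adjusted p 0.000108 at 30 µM, higher in 5 of 6 fish at the 3 upper doses), and by 0.13, 0.39 and 0.36 at the 3 upper doses on the total-read scale. A beta subunit gene, LOC100196679, the catalytic partner of alpha and likewise chosen after its values were seen, fell by 0.32 at 100 µM (SE 0.08, adjusted p 0.001).

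Opposite calls among genes of 1 name were made at some arsenite dose for 7 of the 54 names with copies: 3 names at 3 µM, 4 at 10 µM and 5 at either 30 or 100 µM. They were the Rieske protein, SDHB, SDH assembly factor 2, the C3 subunit, the alpha subunit, COX8B and COX5A. How often other genes of 1 name had opposite calls was not computed. The number of such names thus cannot be read as particular to the respiratory chain. In COX5A, a core-binding subunit, LOC106587211 rose by 0.31 at 100 µM (0.22 on the total-read scale; lost without fish 1 or 4, adjusted p up to 0.0915), while LOC106584709 fell by 0.34 (lost without fish 1, 3 or 6 or without the AsIII 100 µM library of fish 1, adjusted p up to 0.124).

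**Figure D3:**
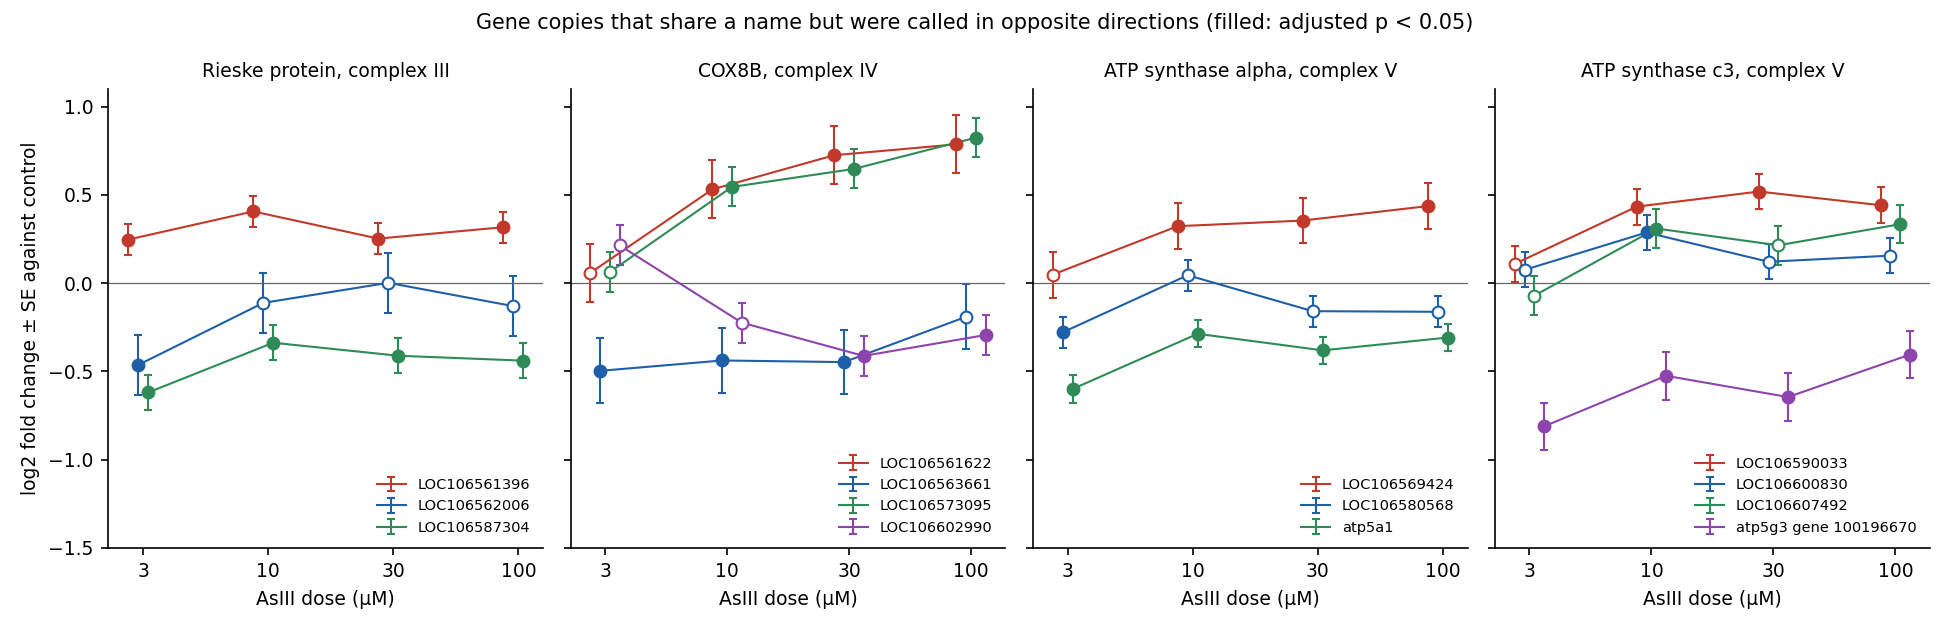
Log2 fold change against the arsenite control with its SE (y axis) at 4 arsenite doses (x axis, µM) for gene copies that share a name in complexes III, IV and V. Filled points have a limma adjusted p under 0.05. In each panel at least 1 copy lies above 0 and another below it, such as COX8B with 0.82 in LOC106573095 and -0.29 in LOC106602990 at 100 µM.

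Assembly factors had lower medians than subunits at every arsenite dose, though the difference was not tested. Of 25, 11 fell and 2 rose at 3 µM, 12 and 1 at 10 µM, 7 and 0 at 30 µM, and 9 and 0 at 100 µM. Over all genes 25.0%, 20.5%, 17.7% and 17.3% fell at these doses, and 29.5%, 26.8%, 23.9% and 22.6% rose. The median log2 fold changes of the assembly factors from 3 to 100 µM were -0.30, -0.36, -0.28 and -0.26, where those of the 144 subunits were -0.25, -0.02, -0.12 and -0.14. The sum of their counts was below that of the same fish's control in 6 of 6 fish at each dose, with a median ratio of 0.937, 0.877, 0.797 and 0.773.

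The 2 assembly factors that fell at every arsenite dose were factors for complex IV. LOC106569212 (COA1, an early factor) had 113, 124 and 139.6 normalized counts at 30 µM and 78.9, 119.7 and 173.1 at 100 µM, against 278, 339 and 403 in the control. Neither range reached the control, and the log2 fold changes from 3 to 100 µM were -1.01, -0.85, -1.44 and -1.54 (SE 0.19, limma adjusted p 1.19e-07 at 100 µM). LOC106586742 (COA5) had 83.3, 105 and 164.2 at 30 µM, against 221, 263 and 354, without overlap at any dose (-1.04, -1.07, -1.31 and -0.99; SE 0.19). LOC106589644 (COA3, which in yeast and human acts with the newly made COX1 protein) stood at 0.14 at 3 µM, and at -0.13 on the total-read scale, without a call on either. It had 199, 297 and 424 at 30 µM, against 642, 701 and 896, and fell by 0.91, 1.30 and 1.19 at 10, 30 and 100 µM (SE 0.16, adjusted p 1.26e-07 at 30 µM), without overlap at any of the 3.

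Among factors that handle the heme and copper of complex IV, LOC106604458 and LOC106586601 were chosen after their values were seen. LOC106604458 (COX15, which makes heme A) had 595, 808 and 905 normalized counts at 100 µM, against 1247, 1296 and 1432 in the control, without overlap. It fell by 0.72 at 30 µM and 0.75 at 100 µM (SE 0.15), and by 0.37 at 10 µM, a call lost without fish 1, 2 or 4 (adjusted p up to 0.148). At 3 µM it stood at -0.02 (adjusted p 0.927). LOC106586601, the copper chaperone COX17, fell by 0.63 at 10 µM and 0.54 at 30 µM (SE 0.16), and by 0.44 at 3 µM, a call lost without fish 2 (-0.42, adjusted p 0.0526) or fish 5 (-0.33, 0.117). COX19 (LOC106589330), which also serves copper delivery, had 256, 270.2 and 287 at 3 µM, against 141, 195 and 214, without overlap, and rose by 0.54 (SE 0.13, adjusted p 0.000632; 0.28 and 0.0633 on the total-read scale).

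For complexes I, II and V the pattern depended on the dose. The gene ndufaf7, a methyltransferase for complex I, had 95.9, 145 and 229.6 normalized counts at 3 µM, against 306, 385 and 425 in the control, without overlap (-1.37 ± 0.17, adjusted p 2.13e-08). It fell by 0.51 at 10 µM, lost without fish 4 (-0.41, adjusted p 0.0786), and by 0.47 at 100 µM, lost without fish 3, 4 or 6. LOC106571326 (NDUFAF4) had 89.6, 117 and 219 at 100 µM, against 230.0, 287 and 326, without overlap (-1.09 ± 0.18, adjusted p 1e-05). Its fall of 0.53 at 30 µM was lost without fish 4 (-0.49, adjusted p 0.0686) or fish 6 (-0.40, 0.117). LOC106574045 (ATPAF1-like; ATPAF1 binds the beta subunit of complex V) had 59.8, 80.9 and 133 at 30 µM, against 176.3, 193 and 259, without overlap, with log2 fold changes of 0.04, -0.69, -1.22 and -1.07 from 3 to 100 µM (SE 0.22).

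SDHAF2, which adds the flavin to SDHA, had copies that split at 3 µM. The copy sdhaf2 had 1500.4, 1723 and 2298 normalized counts, against 1009, 1205 and 1518 in the control, with overlap, and rose by 0.54 (SE 0.13, adjusted p 0.000597; 0.27 and 0.0761 on the total-read scale). LOC106562323 had 19.4, 35.2 and 51.5, against 76.5, 79.4 and 114, without overlap, and fell by 1.34 (SE 0.26, adjusted p 5.08e-05).

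**Figure D4:**
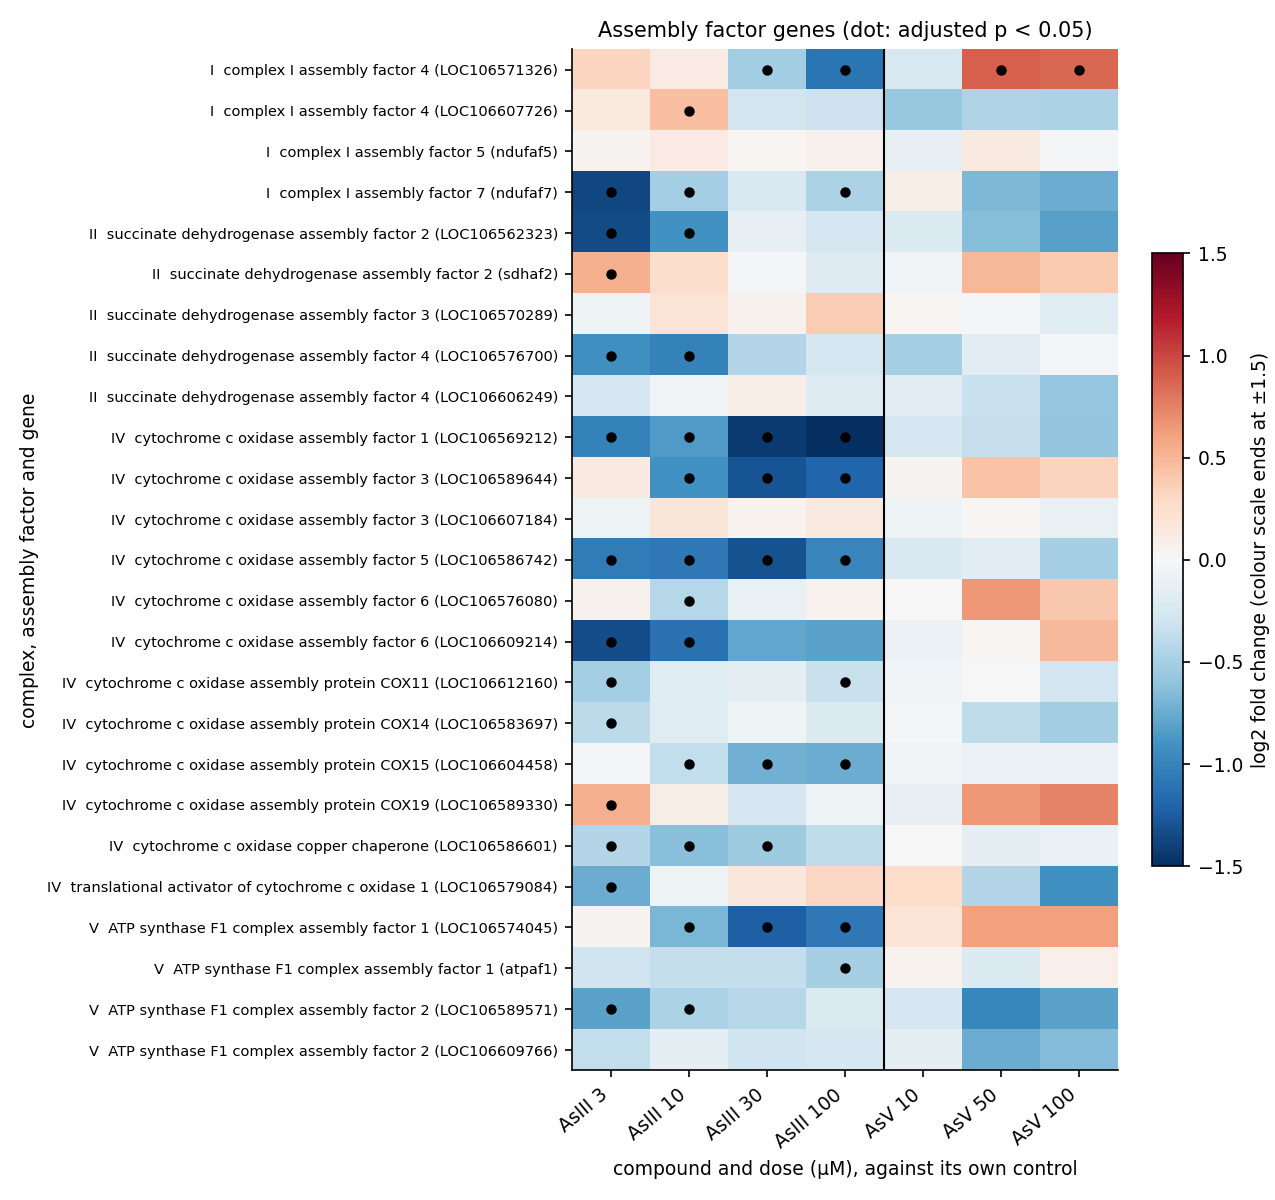
Log2 fold change (colour, red higher and blue lower, ends at ±1.5) of the 25 assembly factor genes (rows, by complex) at each arsenite and arsenate dose against its own control (columns). Dots mark a limma adjusted p under 0.05. COA1 (LOC106569212) and COA5 (LOC106586742) are lower at every arsenite dose, and NDUFAF4 (LOC106571326) is lower at 30 and 100 µM AsIII and higher at 50 and 100 µM AsV.

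The vacuolar subunits vato and vatb2, parts of the pump that acidifies lysosomes, are the 2 genes of the set that rose at one arsenite dose and fell at another. The gene vatb2 had 3036, 3127 and 3344 normalized counts at 3 µM, against 1744, 2023 and 2216 in the control, and 1124, 1358 and 1536 at 100 µM; neither exposed range overlapped the control. Its log2 fold changes were 0.65, 0.02, -0.46 and -0.60 from 3 to 100 µM (SE 0.09), and those of vato were 0.54, -0.13, -0.60 and -0.73 (SE 0.10). On the total-read scale both remained higher at 3 µM (0.39 and 0.28). The s-like gene atp5sl, whose human counterpart takes part in complex I assembly, fell by 0.82, 0.67 and 0.53 at 3, 10 and 100 µM (SE 0.18); the call at 100 µM was lost without fish 1 (-0.35, adjusted p 0.132), fish 2 (-0.45, 0.0819) or the AsIII 100 µM library of fish 1 (-0.42, 0.0529).

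As a share of all reads, the 144 nuclear subunit genes took 0.566% in the arsenite control and 0.432%, 0.466%, 0.490% and 0.497% at 3, 10, 30 and 100 µM. In normalized counts the sums were 215369 ± 16146 in the control and 197078 ± 13222, 218742 ± 15368, 203526 ± 11279 and 200295 ± 8072 at the 4 doses (mean ± SD, n = 6), changes smaller than those of many single genes. By complex, the ratio to the same fish's control at 3 µM had a median of 0.824 for complex I, 0.823 for III, 0.946 for IV and 0.854 for V, each lower in 6 of 6 fish. At 100 µM it was 0.885 for complex I and 0.887 for complex III, lower in 6 of 6 fish, and 1.07 for complex IV, higher in 4 of 6; as a share of all reads complex IV was at 0.138% at 100 µM, against 0.140% in the control, and so not higher on that scale.

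The sum of the subunits encoded on mitochondrial DNA had a median ratio to the same fish's control of 0.988 at 3 µM, 0.876 at 10 µM, 0.238 at 30 µM and 0.213 at 100 µM. Per count of nuclear subunit, the mitochondrially encoded counts were 4.88 ± 0.58 in the control and 5.28 ± 0.86, 4.12 ± 0.69, 1.33 ± 0.32 and 1.31 ± 0.44 at the 4 doses (mean ± SD, n = 6). As a share of all reads they took 2.76% in the control and 2.27%, 1.92%, 0.656% and 0.652% at the 4 doses. Of the 13 genes, 6, 8, 12 and 12 fell from 3 to 100 µM and none rose, with a median log2 fold change of -0.37 at 3 µM. The shares of all genes that fell were 25.0%, 20.5%, 17.7% and 17.3%, and 29.5%, 26.8%, 23.9% and 22.6% rose. The sum gives most weight to COX1, CYTB and COX2, with mean values of 422940, 158723 and 131633 over all libraries. It can thus differ from the median of the 13 genes.

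**Figure D5:**
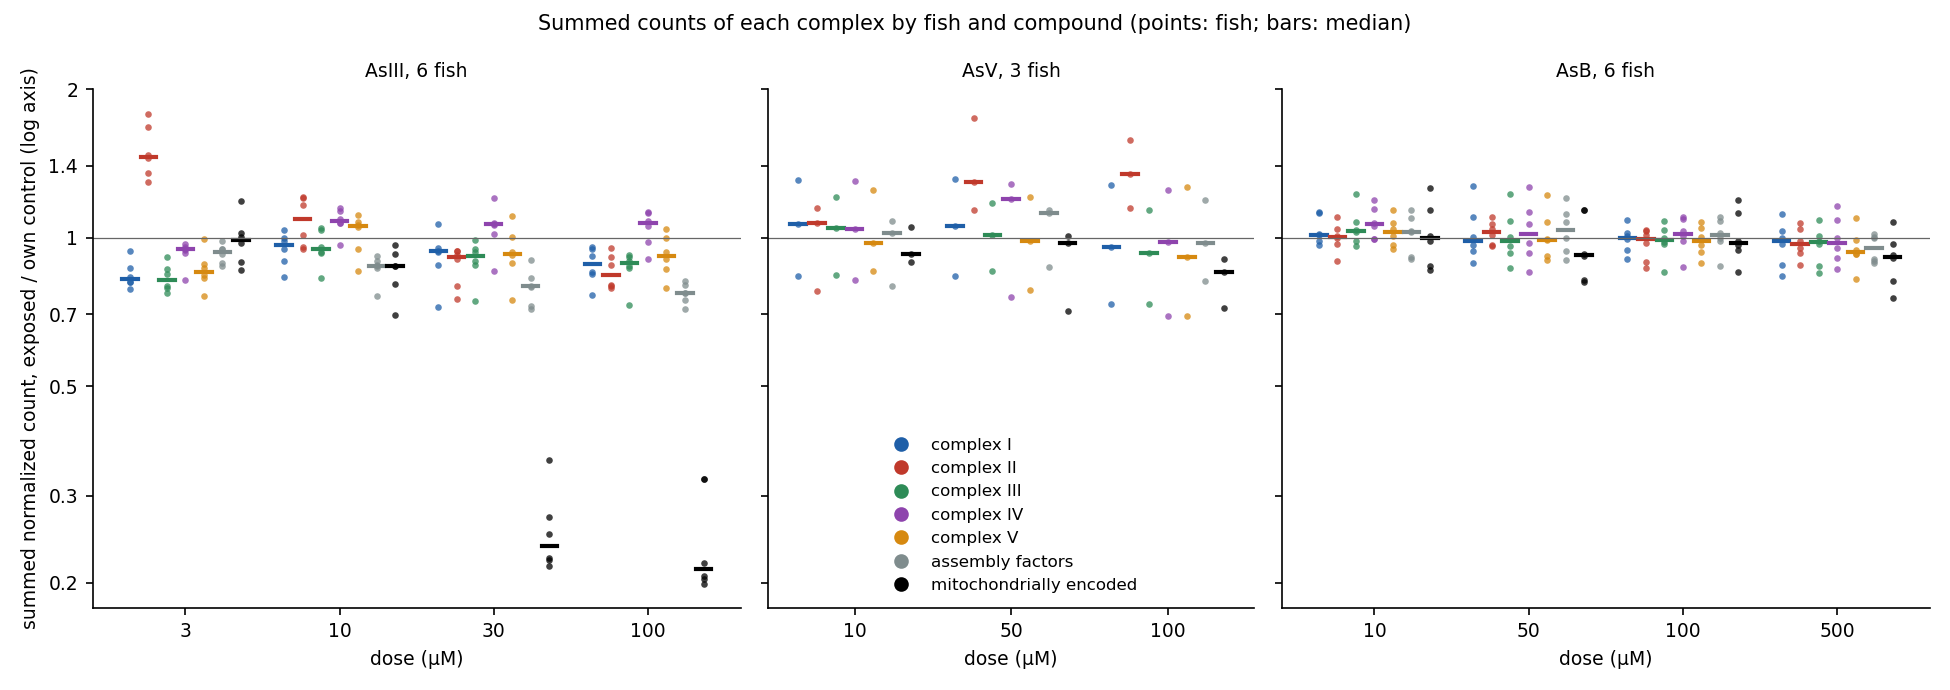
Summed normalized counts of the subunits of each complex, the assembly factors and the 13 mitochondrially encoded genes, as a ratio to the same fish's control (y axis, log scale), by dose (x axis, µM) of AsIII, AsV and AsB. Points are fish and bars medians. The complex II sum reaches a median of 1.46 at 3 µM AsIII and 1.35 at 100 µM AsV, and the AsB medians lie close to 1.

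Genes around the chain that the name rule does not take in were read from lists drawn up by function. The genes named from them were chosen after their values were seen. In cytochrome c, the carrier between complexes III and IV, LOC106582467 changed by 3.00, 2.85, 1.81 and 1.01 from 3 to 100 µM AsIII and LOC106586251 by 1.56, 1.47, 1.11 and 1.00, all called. The list of 14 carrier and inhibitor genes includes LOC106565051 and LOC106582630, named cytochrome c1, a complex III subunit whose name the rule does not match. In that list, 8 rose and 3 fell at 3 µM, where over all genes 29.5% rose and 25.0% fell. By contrast LOC106588193, a gene for an inhibitor of complex V, fell by 0.53, 0.55, 0.47 and 0.46. The list also holds LOC106563115 and LOC106610705, named as the same kind of inhibitor, whose values with arsenite are not given here. Of 38 biogenesis genes outside the rule, 17, 17, 19 and 18 fell from 3 to 100 µM and 5, 5, 2 and 3 rose, with medians of -0.32, -0.36, -0.47 and -0.40. Over all genes 25.0%, 20.5%, 17.7% and 17.3% fell at these doses, and 29.5%, 26.8%, 23.9% and 22.6% rose. The 38 genes include OXA1L (LOC106608836), which inserts proteins into the inner membrane and fell by 0.88, 0.90, 1.13 and 1.06. They also include 2 copies of SCO2, a copper carrier for complex IV, which fell at every dose (LOC106576176 by 1.33 and LOC106609296 by 0.95 at 10 µM). Of 18 genes of coenzyme Q synthesis or binding (the latter named COQ10), 5 rose and 6 fell at 3 µM. Of 29 regulators of mitochondrial biogenesis 8 rose and 11 fell, where over all genes 29.5% rose and 25.0% fell. Of 34 mitochondrial chaperones and proteases, 13 rose and 15 fell at 3 µM, and 2 rose and 15 fell at 100 µM, where over all genes 22.6% rose and 17.3% fell.

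Between arsenite doses, the step with the most calls was the one between 3 and 10 µM, where the subunits were higher at 10 µM. At 10 µM, 46 genes were higher and 12 lower than at 3 µM (26.4% and 6.90%), where 14.6% and 15.7% of all genes were; on the total-read scale it was 37 and 13, with 11.9% and 16.8% of all genes. The median was 0.21 for the respiratory chain genes and 0.07 for all genes. Subunits of complex IV (15 higher, 1 lower), V (12 and 0) and I (12 and 1) made up most, and with fish as a block 20 of complex V and 6 of complex III were higher, in a fit that called 41.5% of all genes. Complex II went the other way, with 1 higher and 4 lower. LOC106566856 (SDHB) was lower by 1.48 (SE 0.43, limma adjusted p 0.00934), LOC106598858 and LOC106573122 (SDHA) by 1.30 and 1.25, and the assembly factor LOC106589644 (COA3) by 1.05. The assembly factor ndufaf7 was higher by 0.86 and the COX7A2 copy LOC106607688 by 0.79.

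Above 10 µM the doses differed little in these genes. At 30 µM, 2 genes were higher and 17 lower than at 10 µM, where 9.98% and 11.4% of all genes were; with fish as a block it was 2 and 27, in a fit that called 30.5% of all genes. That direction depended on the scale: on the total-read scale 11 were higher and 3 lower (16.8% and 6.49% of all genes), so that rises made up 10.5% of calls with size factors and 78.6% with total reads. Assembly factors were among the lower ones, with LOC106571326 (NDUFAF4) at -0.65 ± 0.18 (adjusted p 0.00757) and LOC106569212 (COA1) at -0.59 ± 0.19 (0.0253), and at -0.47 and -0.41 without a call on the total-read scale. The call of LOC106569212 was lost without fish 1, 3, 4 or 5 (adjusted p up to 0.071), and 10 or 11 genes in all were called without fish 3, 5 or 6, against 19 with all fish. At 100 µM against 30 µM, 0.147% of all genes were higher and 1.53% lower, and 2477 of 25801 had an unadjusted p under 0.05. No respiratory chain gene was called by limma, edgeR or DESeq2, and 3 had an unadjusted p under 0.05. With fish as a block 1 was lower, in a fit that called 3.5% of all genes.

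Arsenate changed few of these genes, with 3 fish a group. At 10 µM AsV 0 were called by limma or by DESeq2 (limma called 0.0% of all genes), and 0 had an unadjusted p under 0.05. At 50 µM 2 rose and 0 fell, where 4.23% of all genes rose and 2.74% fell, and 13 had an unadjusted p under 0.05. At 100 µM 1 rose and 0 fell, against 4.47% and 2.21% of all genes (19 with an unadjusted p under 0.05; 0 on the total-read scale; 2 with fish as a block, in a fit that called 8.6% of all genes). Over all 25465 genes tested, 116, 5841 and 5656 had an unadjusted p under 0.05 at 10, 50 and 100 µM AsV. The gene that rose at both 50 and 100 µM AsV was LOC106571326 (NDUFAF4). It had 445, 556 and 431 normalized counts in fish 1, 2 and 3 at 50 µM and 443, 565 and 394 at 100 µM, against 241, 276 and 249 in the control. All exposed values lay above all control values, with log2 fold changes of 0.89 ± 0.23 (adjusted p 0.0318) and 0.86 ± 0.23 (0.0400). Either call was lost without any 1 of the 3 fish, with adjusted p up to 0.239 at 50 µM and 0.396 at 100 µM.

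LOC106571957, an NDUFA4-like 2 gene whose mammalian counterpart is known from cells at low oxygen, rose at 50 µM AsV. It had 286, 261 and 170.1 normalized counts in fish 1, 2 and 3 at 50 µM and 239.9, 293 and 90.2 at 100 µM, against 80.8, 59.98 and 11.2 in the control. The groups did not overlap, and the log2 fold change was 2.57 ± 0.68 at 50 µM (adjusted p 0.0371) and 2.24 ± 0.68 at 100 µM (0.0659; 0.0108 with fish as a block). The call at 50 µM was lost without fish 1 (2.96, adjusted p 0.134), fish 2 (2.81, 0.157) or fish 3 (1.96, 0.0745).

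Complex II in arsenate had high values in LOC106566856, LOC106573122 and LOC106598858, copies that rose with 3 µM arsenite, but no call by limma. The copy sdha, which also rose with 3 µM arsenite, was not called in arsenate by limma either. LOC106566856 (SDHB) had 3674, 3563 and 8765 normalized counts in fish 1 to 3 at 50 µM and 5540.0, 5593 and 3482 at 100 µM, against 1913, 1887 and 2589 in the control. All exposed values lay above all control values, with log2 fold changes of 1.21 (adjusted p 0.0861) and 1.18 (0.0951). LOC106573122 (SDHA) stood at 1.03 and 1.05 (0.0875 and 0.0844). DESeq2 called both genes at either dose, and without fish 3 limma called them at 100 µM (1.55, adjusted p 0.0412, and 1.44, 0.0118). The complex II sum was 1.14, 1.30 and 1.74 times that of the same fish's control at 50 µM and 1.15, 1.35 and 1.58 times at 100 µM, higher in 3 of 3 fish.

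With arsenobetaine, 0 respiratory chain genes were called by limma at 10, 50, 100 or 500 µM, and 0.0% of all genes were called at each dose. An unadjusted p under 0.05 was reached by 2, 2, 2 and 3 of them, and by 790, 542, 715 and 848 of all 25492 genes tested. Their medians were 0.06, 0.03, -0.02 and -0.05, where those of all genes lay at 0.00 or 0.01. LOC106573122 (SDHA) stood at 0.12, 0.31, 0.03 and 0.06 and LOC106580927 (SDHD) at -0.04, 0.01, -0.12 and -0.14. Between the unexposed controls of the compounds 0 of them were called (0.0% of all genes in each comparison), with an unadjusted p under 0.05 for 2 between the AsV and AsIII controls, 6 between the AsB and AsIII controls and 20 between the AsV and AsB controls.

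The responses to different compounds, each against its own control, were compared at matched doses. The AsIII and AsB responses rest on 6 fish and the AsV response on fish 1 to 3, so comparisons with AsV are in part between different fish. Leaving out 1 fish does not remove this mismatch, and counts with fish 1 to 3 only are given at the end. At 10 µM the AsIII response was higher than the AsV response in 0 genes and lower in 3 (6.94% and 3.74% of all genes; 4 and 7 with fish as a block, in a fit that called 16.7%). LOC106573873 (NDUFA7-like) differed by -1.51 ± 0.52 (adjusted p 0.0453), atp5sl by -1.20 ± 0.36 (0.0166) and LOC106589644 (COA3) by -0.95 ± 0.28 (0.016). Each was lost without fish 3 (adjusted p 0.507, 0.265 and 0.0727), the first also without fish 2 or 5 and the others without fish 1. At 100 µM the AsIII response was higher in 4 genes and lower in 7 (6.82% and 7.27% of all genes; 4 and 14 with the block, in a fit that called 19.9%). The assembly factors LOC106571326 (NDUFAF4), LOC106574045 (ATPAF1-like) and LOC106589644 differed by -1.95 ± 0.38 (adjusted p 0.000122), -1.69 ± 0.41 (0.00165) and -1.53 ± 0.28 (3.52e-05), and no left-out fish ended these calls, although without fish 1 or 2 the calls in all were 7 in place of 11. LOC106566856 (SDHB) differed by -2.13 ± 0.61 (0.0106), lost without fish 1 (-1.83, adjusted p 0.134) or fish 2 (-1.82, 0.154). The COX8B copy LOC106573095 was higher by 0.93 ± 0.24 (0.00395), lost without fish 1 (0.61, adjusted p 0.2).

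Against arsenobetaine, the AsIII response at 10 µM was higher in 1 gene and lower in 11 (11.6% and 8.38% of all genes; 5 and 18 with the block, in a fit that called 26.1%), and at 100 µM higher in 4 and lower in 16 (7.31% and 5.88%). Without fish 1, 5 or 6 the calls at 10 µM were 6, 5 and 5 in place of 12, and without fish 1 or 3 those at 100 µM were 13 in place of 20. At 100 µM the COA1 gene LOC106569212 differed by -1.35 ± 0.30 (adjusted p 0.00078), LOC106589644 (COA3) by -1.10 ± 0.23 (0.00041), the SDHD gene LOC106580927 by -0.59 ± 0.14 (0.00182) and the UQCRC1 gene LOC106582918 by -0.61 ± 0.16 (0.00432). The higher ones included LOC106581904 (NDUFV3-like), by 0.88 ± 0.24 (0.00678), and LOC106573095 (COX8B), by 0.79 ± 0.20 (0.00347); none of these 6 calls was lost without any 1 fish. For AsV against AsB at 10 µM, an unadjusted p under 0.05 was reached by 1 of the set and by 497 of 25830 genes. The AsV and AsB responses differed in 0 genes at that dose (0.0% of all genes). At 50 µM they differed in 1, which was higher (9.56% of all genes in either direction; 1 higher and 4 lower with the block, where 14.8% were called, and likewise on the total-read scale, where 9.13% were). At 100 µM they differed in 3, 1 higher and 2 lower (9.78%; 3 and 5 with the block, where 15.0% were called). The vacuolar gene vatb2 was higher with AsV at both doses, by 0.72 ± 0.17 (adjusted p 0.00173) and 0.67 ± 0.17 (0.00387), lost without fish 3 at 50 µM (0.61, 0.0941) and without fish 2 at 100 µM (0.54, 0.087).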

How the data were processed

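Primary hepatocytes of male Atlantic salmon were sequenced as 72 RNA libraries. Per the submitters' processing notes, HISAT2, featureCounts (Subread) and DESeq2 1.40.2 were used; the genome build is not given in the sources used here. The deposited values are a signal in normalized reads: the authors divided each read count by a size factor for the library, and all values came back as whole reads (tolerance 0.01), which gave the depths. A gene was tested where the number of libraries at or above 10 was no smaller than the smallest group, and fitted with limma 3.58.1 (R 4.3.3) on log2(value + 1), with a trend and robust variances. One fit per compound served the comparisons with its control and between doses (25801, 25465 and 25492 genes for AsIII, AsV and AsB), and one of all 72 libraries served those between compounds (25830 genes); 24 comparisons were made, two-sided, and a call is a Benjamini-Hochberg adjusted p under 0.05 over all genes tested.

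Because the same animals gave the cells of each group, fish numbers pair the samples: over 16415 genes, deviations from group means correlated at a mean of 0.480 between libraries of the same fish in AsIII, 0.232 in AsV and 0.306 in AsB, against -0.0961, -0.115 and -0.0604 between different fish. Fits with fish as a block, edgeR 4.0.16 and DESeq2 1.42.0 on the recovered reads, total-read scaling, a pseudocount of 8, no filter, fits without 1 fish or 1 library, and fits of fish 1 to 3 only were alternatives. No pair of libraries in a group agreed within sampling noise (lowest chi-square per gene 19.2 over 162 pairs). The limma step was tested on simulated counts. The genes, the lists and the tests were chosen with earlier results of these data known. A rule marked 75 of 174 genes for naming. It took the called subunit with the greatest rise and fall of each complex and dose, likewise assembly factors. It also took all succinate dehydrogenase copies, isoform families, opposite copies and response differences. The text does not give values for all 75. Left out are the greatest rises LOC106606732 and LOC106570481 (complex III, 30 and 100 µM AsIII), LOC106604209 (complex V, 10 µM) and LOC106607726 (assembly factors, 10 µM). The greatest fall of complex IV at 30 µM, LOC106561721, and several isoform copies are also left out. Other genes are said to have been chosen after their values were seen, and most of those within the set fell. Of the 174 genes, 168 were found in the reference gene table.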

Additional observations from a re-analysis of the deposited data

Results flagged for a closer look

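Single fish stood far from the other 5 of their group in 10 of 160 groups checked. Such a check can mark about 1 in 20 groups by chance, and whether the outliers exceed that rate was not tested. The groups checked are not independent, as the complex II sum contains LOC106566856 and the same fish recur. Fish 3 was the high one in most. At 3 µM AsIII it had 30831 normalized counts summed over complex II, 11806 in the SDHB copy LOC106566856 and 1675 in the COX8B copy LOC106573095. It was also high for LOC106566856 at 100 µM (2687) and in the arsenite control (3209), and at 10 µM AsIII for the assembly factors LOC106589644 (569) and LOC106571326 (405). Fish 4 was low for sdha at 10 µM AsIII (3002), fish 6 high for sdhb in the control (1833) and fish 1 high for the NDUFA7-like gene LOC106573873 at 100 µM (148), the library with 1694 genes at 0.

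The tested differences between responses numbered 3 genes for AsIII against AsV at 10 µM, with LOC106573873 at -1.51, atp5sl at -1.20 and LOC106589644 at -0.95, and 11 at 100 µM, led by LOC106566856 at -2.13, LOC106571326 at -1.95 and LOC106574045 at -1.69. For AsIII against AsB they numbered 12 at 10 µM, led by the COA6 gene LOC106609214 at -1.59, LOC106573873 at -1.28 and LOC106586742 at -1.03, and 20 at 100 µM, led by LOC106569212 at -1.35, LOC106574045 at -1.16 and LOC106589644 at -1.10. For AsV against AsB it was 1 at 50 µM, vatb2 at 0.72, and 3 at 100 µM, LOC106612682 at -1.09, vatb2 at 0.67 and LOC106565806 at -0.51. These log2 values are each compound's change against its own control, the first compound minus the second, and their cause was not tested.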

How the results depend on the processing

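Of 139 results on named genes, all kept direction and call with a pseudocount of 8, without the filter and with fish as a block. With edgeR 19 of them lost their call, and with DESeq2 12 did. Among the named differences between responses, 10 lost their call with fish 1 to 3 only and 6 kept it. On the total-read scale 4 changed sign (LOC106561396 at 3 µM AsIII -0.0166; at 10 µM LOC106600830 -0.0183, LOC106570380 -0.0881 and LOC106569582 -0.0831) and 26 lost their call. Counts of genes called moved by over 1.5 times as follows, and the cause was not tested. The share of all genes called is not given for edgeR, DESeq2, fish 1 to 3 only or fits without 1 fish or 1 library. Nor is it given for total-read scaling at 100 µM AsV or for AsIII against AsV and AsB at 10 µM. Without those shares, the counts printed here from those fits cannot be told apart from a shift of all genes. Total-read scaling gave 133 and 107 at 3 and 10 µM AsIII, 0 at 100 µM AsV, 24 and 48 for AsIII against AsV and AsB at 10 µM, and 5 for AsV against AsB at 50 µM. Fish as a block, in these paired samples, gave 29 for 30 against 10 µM AsIII, 1 for 100 against 30 µM, 2 at 100 µM AsV, 11 and 18 for AsIII against AsV at 10 and 100 µM, 23 for AsIII against AsB at 10 µM, and 5 and 8 for AsV against AsB at 50 and 100 µM. The quasi-likelihood test of edgeR gave 1 and 2 at 50 and 100 µM AsV, and 6 and 22 for AsIII against AsV and AsB at 10 µM. DESeq2 gave 7 and 6 at 50 and 100 µM AsV, 6 and 17 for AsIII against AsV at 10 and 100 µM, and 2 for AsV against AsB at 50 µM. Fish 1 to 3 only gave 1 and 5 for AsIII against AsV, 2 and 3 for AsIII against AsB, and 1 for AsV against AsB at 100 µM. Subunits only, fewer genes by construction, gave 12 for 30 against 10 µM AsIII, 1 and 0 at 50 and 100 µM AsV, 1 and 5 for AsIII against AsV, 7 and 12 for AsIII against AsB, and 0 for AsV against AsB at 50 µM. Leaving out 1 fish or 1 library gave 74 to 87, 41 to 57, 39 to 58 and 43 to 62 calls from 3 to 100 µM AsIII, 42 to 60 for 10 against 3 µM, 10 to 19 for 30 against 10 µM, 0 at 50 µM AsV and 0 to 4 at 100 µM. Between responses it gave 1 to 4 and 7 to 12 for AsIII against AsV, 5 to 12 and 13 to 20 for AsIII against AsB, 0 to 5 and 1 to 5 for AsV against AsB at 50 and 100 µM, and 0 to 1 between the AsV and AsB controls. With 3 fish a group AsV had the least power, so genes not called there are not shown to be unaffected.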
